A study of Mus musculus with 3 samples.

Results

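Genes of mitosis and the mitotic spindle were examined in mouse bone marrow-derived macrophages (BMDMs) that had been stimulated in 3 ways. The gene set held 44 listed genes, and its members were the non-control probes of the microarray that carried one of these gene names. All 44 genes had a probe, and 43 were measured on all 3 arrays, of 33597 gene names measured in all. The cells came from C57BL/6J mice and were collected 20 h after the stimuli were added. One array held cells given CpG, a DNA ligand of the innate receptor TLR9. The second held cells given interferon-γ together with a blocker of the IL-10 receptor (IFN-g+IL-10RB), and the third held cells given all of these together (Triple). The BMDMs in all 3 conditions had been grown from bone marrow cells in macrophage colony-stimulating factor (M-CSF) taken from the medium of L929 cells carrying a human M-CSF plasmid. There was 1 array per condition and no array of unstimulated BMDMs, so no test between conditions was possible, no level before stimulation is known, and whether the stimuli add up could not be computed.

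M-CSF, the growth factor of macrophages, drives bone marrow progenitors and young macrophages through the cell cycle, and dividing cells make the transcripts of mitosis late in that cycle. Cyclins A and B switch on the kinase CDK1, the mitotic kinases and motors build the spindle, and the kinetochore ties each chromosome to it. The spindle checkpoint holds back the anaphase-promoting complex until every chromosome is attached. That complex then marks securin and the cyclins for destruction, and the cell divides. Many of these genes are kept off outside the late cycle through a promoter element called CHR, where the repressor DREAM and later the activators B-MYB and FOXM1 act, often beside boxes for the factor NF-Y. Macrophages given microbial ligands or interferon-γ are known to leave the cell cycle.

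Each level is given as a scaled signal, that is the scanner's processed intensity of 1 probe, set so that the 3 arrays shared the 75th percentile of the probes well above background on all of them. Between 44.4% and 46.0% of the spots were well above background on an array, no spot was saturated, and the lowest such signal was 23.3 to 26.9. Spots of the same probe on an array differed little, with an SD of 0.0677 to 0.0893 on the log2 scale, which covers the spotting and scanning error and leaves out any difference between cultures. A signal depends on its probe, so levels were compared between arrays and not between genes, apart from summed signals of cell type markers. A bulk RNA sample gives the sum over its cells, so that fewer dividing cells cannot be told apart from less of each transcript per cell. All 3 arrays came from 1 slide with 1 scan time, each with its own position on it, and condition and array position cannot be told apart.

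Nearly the whole set was lower in Triple than in either of the other arrays. A difference from IFN-g+IL-10RB could be given for 41 genes, and 37 of them were more than 2-fold lower in Triple and 0 were more than 2-fold higher. Over all genes with such a difference, 9.31% were more than 2-fold lower and 6.57% more than 2-fold higher. Compared with CpG, 36 of 41 had a Triple signal more than 2-fold lower and 0 a higher one, against 8.37% lower and 7.50% higher over all genes. These counts include genes not well above background in Triple, Cdc25c in both comparisons and Ttk from IFN-g+IL-10RB. With both arrays required to be well above background, 35 genes were lower in each comparison, against 7.40% and 6.24% over all genes. The median log2 difference of the set was −2.34 from IFN-g+IL-10RB, a 5.05-fold lower signal, where the median of all genes was −0.05. From CpG the median of the set was −1.85, a 3.60-fold lower signal, and that of all genes was −0.06. The arrays of both comparisons include Triple, so these are not independent of each other.

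The size of the difference varied widely within the set. From IFN-g+IL-10RB, 29 genes had a Triple signal lower by more than 4-fold and 6 by more than 8-fold, namely Kif23, Kif11, Ccna2, Plk1, Ccnb2 and Anln. Against CpG, 19 genes were more than 4-fold and 3 more than 8-fold lower. Over all genes, 505 and 151 of 18061 passed these limits from IFN-g+IL-10RB, and 407 and 112 of 18273 against CpG. The order of the arrays was the same for 38 of the 41 genes, with IFN-g+IL-10RB highest, CpG next and Triple lowest. The exceptions were Pttg1, Tpx2 and Ncapg. In 8 of the 41 genes CpG and IFN-g+IL-10RB lay within 2 SD of the spot error of each other, so that the order of these 2 arrays is not secure there. The spot error leaves out any difference between cultures, so with 1 array per condition the order is not secured for the other genes either. How often this order occurs over all genes was not computed. Aurkb and Cenpf were not well above background on any array, with 1 probe each, and have no difference here. Smc4 had 1 probe, which the scanner software marked as an outlier, and is given apart below.

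**Figure D1:**
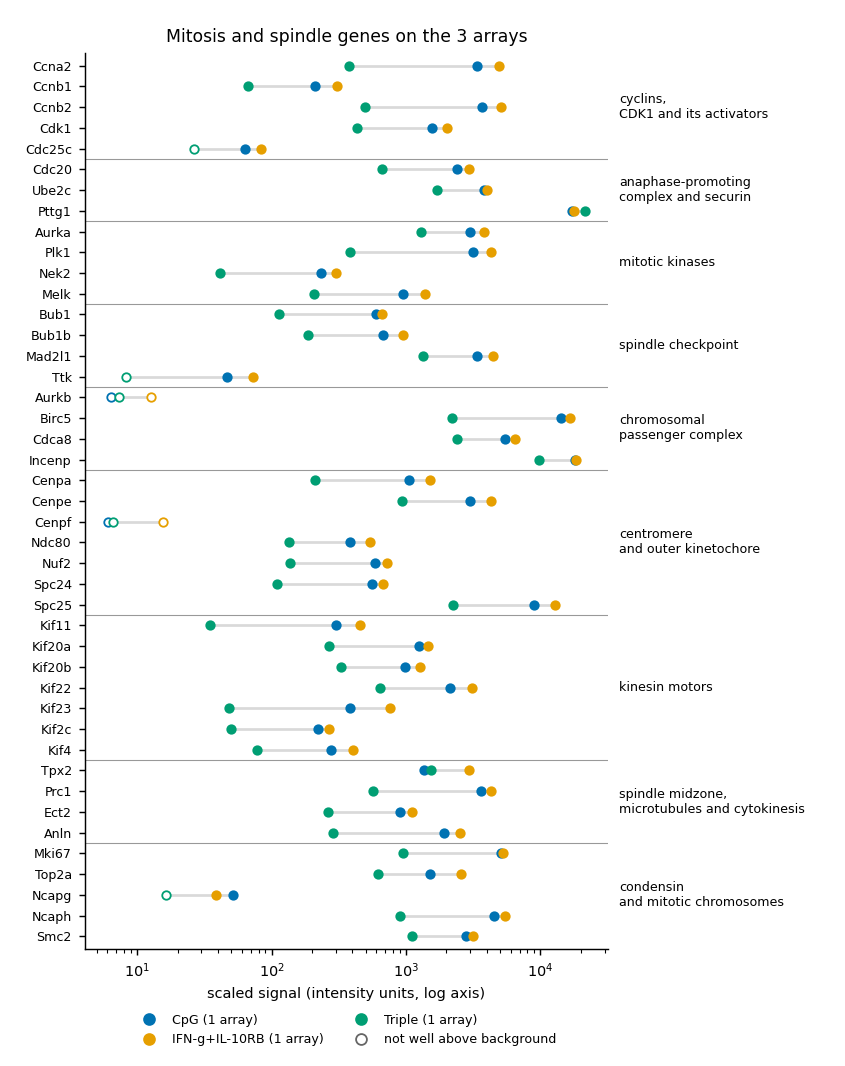
Scaled signal (intensity units, log axis) of the 43 measured genes on the CpG, IFN-g+IL-10RB and Triple arrays, 1 point per array, ordered by role. Open points are signals not well above background, and the Triple point lies to the left of both others for 39 of the 41 genes well above background on at least 1 array.

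The promoters of the set were read for the elements named above. RefSeq promoter windows (build GRCm38.p6, 250 bases before to 50 bases after the gene start, 32851 windows in all) were given for 36 of the 44 genes, and for the 2 genes with more than 1 window the first listed was used. The 3 genes with the lowest Triple level relative to IFN-g+IL-10RB among these are shown because they carry the largest differences among the genes with a window, and Pttg1 because its signal was higher in Triple than in both other arrays. Kif23 lies at chr9:61946750-61947049 on the minus strand, Kif11 at chr19:37376132-37376431 on the plus strand, Plk1 at chr7:122159185-122159484 on the plus strand and Pttg1 at chr11:43425932-43426231 on the minus strand. All are written 5′ to 3′ along the gene, with every match to TTTGAA or TTCGAA (the CHR element) and to CCAAT (the NF-Y box), on either strand, in capitals.
Kif23: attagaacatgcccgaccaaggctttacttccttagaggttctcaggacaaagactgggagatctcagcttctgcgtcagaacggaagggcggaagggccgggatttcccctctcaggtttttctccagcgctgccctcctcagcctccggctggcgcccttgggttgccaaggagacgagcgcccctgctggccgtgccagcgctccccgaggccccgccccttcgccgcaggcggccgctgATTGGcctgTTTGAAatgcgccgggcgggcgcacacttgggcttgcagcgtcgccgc
Kif11: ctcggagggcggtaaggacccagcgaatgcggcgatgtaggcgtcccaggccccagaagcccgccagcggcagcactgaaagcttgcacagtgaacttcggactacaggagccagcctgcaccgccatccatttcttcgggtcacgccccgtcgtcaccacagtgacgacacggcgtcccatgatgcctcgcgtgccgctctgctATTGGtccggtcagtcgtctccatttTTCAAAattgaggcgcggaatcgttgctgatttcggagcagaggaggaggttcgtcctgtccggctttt
Plk1: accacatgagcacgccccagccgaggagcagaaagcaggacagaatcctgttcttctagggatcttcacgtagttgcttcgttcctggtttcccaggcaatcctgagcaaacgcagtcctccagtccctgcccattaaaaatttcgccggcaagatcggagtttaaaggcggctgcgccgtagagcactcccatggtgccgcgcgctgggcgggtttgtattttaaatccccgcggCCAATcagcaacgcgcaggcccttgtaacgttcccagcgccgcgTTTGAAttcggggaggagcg
Pttg1: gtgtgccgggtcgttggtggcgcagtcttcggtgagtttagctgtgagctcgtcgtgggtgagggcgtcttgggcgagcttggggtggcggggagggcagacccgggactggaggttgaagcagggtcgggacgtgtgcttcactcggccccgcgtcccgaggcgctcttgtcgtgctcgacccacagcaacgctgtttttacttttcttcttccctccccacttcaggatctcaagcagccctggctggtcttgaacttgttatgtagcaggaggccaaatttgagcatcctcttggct
The windows of Kif23, Kif11 and Plk1 each hold 1 CHR match and 1 NF-Y match, with the NF-Y box ahead of the CHR element, while the window of Pttg1 holds no match to either. A match is a match of letters and not a measured binding site, and the missing match in Pttg1 says no more than that these letters are not in this window.

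Across the set, 27 of the 36 windows (75%) held a CHR match, compared with 19.2% of all promoter windows. TTTGAA alone was in 26 windows (72.2%, against 17.9% of all) and TTCGAA in 3 (8.33%, against 1.56%). CCAAT was in 26 windows (72.2%, against 37.4%), and both kinds of element were in 23 (63.9%, against 7.52%). In 2 cases 1 match overlapped another. The CHR matches gathered at the gene start, since 23 of the 36 windows (63.9%) had one that began between 25 bases before and 49 bases after it, compared with 3.86% of all windows. NF-Y boxes sat upstream, and 22 windows (61.1%) had one starting in the 100 bases before the gene start, compared with 19.3% of all. Neither range was set in advance, and the one for the CHR element covers its tallest bins in these same windows. The listed DNA replication genes, of which 20 had a window, were at 5.00% for the CHR element near the start and at 60.0% for the upstream NF-Y box. Other mitosis genes outside the set, with 77 windows, were at 29.9% for the CHR element near the start, 49.4% for a CHR match anywhere in the window and 49.4% for the upstream NF-Y box, so that these elements were not particular to the set. Of the genes more than 2-fold lower in Triple than in IFN-g+IL-10RB, 25 of 33 with a window had a CHR match, and some of the lower genes had neither element. Birc5, Nuf2, Melk, Ncaph and Mad2l1, named after their windows were read, were all more than 2-fold lower and had no match to either in the window used.

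**Figure D2:**
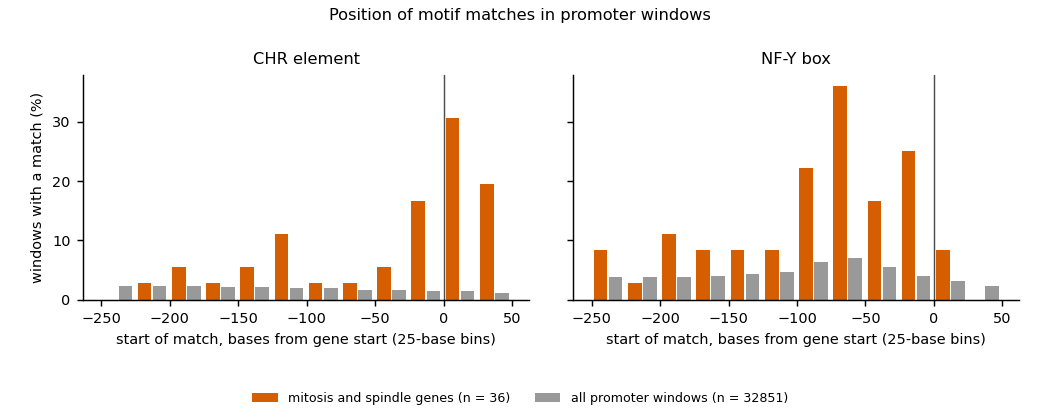
Share of promoter windows (%) with a match that begins in each 25-base bin, by distance from the gene start, for the CHR element and the NF-Y box. Orange bars are the 36 windows of the mitosis and spindle genes and grey bars all 32851 windows. The tallest CHR bar of the set lies at 0 to 24 bases (30.6%) and the tallest NF-Y bar at 75 to 51 bases before the start (36.1%).

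The mitotic cyclins, CDK1 and its activating phosphatase Cdc25c, which start mitosis, were more than 2-fold lower in Triple (5 of 5 genes, Cdc25c as a bound). Ccna2, cyclin A2, had a scaled signal of 3369.8 in CpG, 4933 in IFN-g+IL-10RB and 379 in Triple. Triple stood far under the other arrays, 13.0-fold below IFN-g+IL-10RB (log2 difference −3.70) and 8.90-fold below CpG (−3.15). Cdk1, the kinase these cyclins activate, read 1553 in CpG, 2025 in IFN-g+IL-10RB and 436 in Triple. Its Triple signal was 4.65-fold below IFN-g+IL-10RB (−2.22) and 3.56-fold below CpG (−1.83). A mean over all Cdk1 probes, of which one was dim and another not above background, gave −0.86 and −0.83 and so fell short of 2-fold.

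Ccnb1, cyclin B1, read 209.96 in CpG, 307 in IFN-g+IL-10RB and 66.4 in Triple on the probe used. Triple was lowest here as well, with log2 differences of −2.21 from IFN-g+IL-10RB and −1.66 from CpG. Its brightest probe was marked as an outlier spot, and read 1919 in CpG, 2245 in IFN-g+IL-10RB and 606 in Triple, with log2 differences of −1.89 and −1.66. Both probes placed Triple more than 2-fold under the other arrays. Cdc25c, the phosphatase that frees CDK1 from inhibition, read 63.0 in CpG, 82.9 in IFN-g+IL-10RB and 26.7 in Triple, and its Triple signal was not well above background. On the scanner's processed signal it was at least 3.09-fold below IFN-g+IL-10RB and at least 2.34-fold below CpG. With normexp background correction the log2 differences were −0.60 and −0.36, smaller than these bounds and inside 2-fold. The second B-type cyclin, Ccnb2, was 10.2-fold below IFN-g+IL-10RB.

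The genes around the anaphase-promoting complex were split. Cdc20, its activator at anaphase, had a scaled signal of 2399 in CpG, 2948 in IFN-g+IL-10RB and 659 in Triple. Triple was 4.47-fold below IFN-g+IL-10RB (−2.16) and 3.64-fold below CpG (−1.86). Ube2c, the ubiquitin-conjugating enzyme that works with the complex, read 3804 in CpG, 3999 in IFN-g+IL-10RB and 1693 in Triple. CpG and IFN-g+IL-10RB were close and Triple was lower by 2.36-fold and 2.25-fold, the smallest difference past 2-fold from IFN-g+IL-10RB. On scaling to housekeeping genes the log2 differences of Ube2c were −0.97 and −0.93, inside 2-fold.

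Pttg1 encodes securin, the inhibitor of separase and a substrate of this complex, and was the one gene with a higher Triple signal than both others. It read 17283 in CpG, 17685 in IFN-g+IL-10RB and 21306 in Triple. Triple was the highest array by a narrow margin, with log2 differences of 0.27 from IFN-g+IL-10RB and 0.30 from CpG, both inside 2-fold. A second Pttg1 probe gave 0.52 and 0.78, in the same direction.

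All 4 mitotic kinases were more than 2-fold lower in Triple than in either other array. Plk1, polo-like kinase 1, which acts on centrosomes, kinetochores and the midzone, read 3154 in CpG, 4256 in IFN-g+IL-10RB and 386 in Triple. The Triple signal was 11-fold below IFN-g+IL-10RB (−3.46) and 8.17-fold below CpG (−3.03). Aurka, the spindle pole kinase Aurora A, read 3006 in CpG, 3818 in IFN-g+IL-10RB and 1296 in Triple. It had the smallest difference of the kinases, −1.56 and −1.21, and from CpG it was at −0.97 on scaling to housekeeping genes. The centrosomal kinase Nek2 (−2.86 from IFN-g+IL-10RB) and the kinase Melk (−2.75) lay between these.

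The spindle checkpoint genes were lower in Triple as well (4 of 4 more than 2-fold against IFN-g+IL-10RB and 3 of 4 against CpG). Bub1, a checkpoint kinase of the kinetochore, read 599 in CpG, 660.4 in IFN-g+IL-10RB and 113 in Triple. CpG and IFN-g+IL-10RB were close and Triple was 5.86-fold and 5.31-fold lower than IFN-g+IL-10RB and CpG. Ttk, the MPS1 kinase that starts checkpoint signalling, was dim throughout, at 46.6 in CpG, 72.3 in IFN-g+IL-10RB and 8.22 in Triple, and was not well above background in Triple. On the scanner's processed signal its difference is a bound, at least 2.69-fold from IFN-g+IL-10RB and at least 1.73-fold from CpG. With normexp background correction the log2 difference from IFN-g+IL-10RB was −0.51, smaller than that bound. Bub1b (−2.34) and Mad2l1 (−1.73), parts of the checkpoint complex that holds CDC20, were between.

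In the chromosomal passenger complex, the Aurora B kinase and its partners at the inner centromere, the members differed in size. Birc5, survivin, read 14310.1 in CpG, 16667 in IFN-g+IL-10RB and 2181 in Triple. Triple stood 7.64-fold below IFN-g+IL-10RB (−2.93) and 6.56-fold below CpG (−2.71). Cdca8, borealin, was lower by less (−1.45 and −1.19), and on scaling to housekeeping genes its difference from CpG was −0.95. Incenp, the scaffold of the complex, read 18118 in CpG, 18537 in IFN-g+IL-10RB and 9708 in Triple. CpG and IFN-g+IL-10RB hardly differed, and Triple was 1.91-fold and 1.87-fold lower, just inside 2-fold for both. On scaling to the spike-in RNAs it passed 2-fold, at −1.11 and −1.02. Aurkb, the kinase itself, read 6.41 in CpG, 12.7 in IFN-g+IL-10RB and 7.32 in Triple, not well above background on any array, so that its level is not known from these arrays.

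The centromere and outer kinetochore genes formed an even group. All 6 with a signal were more than 2-fold lower in Triple, with log2 differences of −2.85 to −2.0 from IFN-g+IL-10RB and −2.34 to −1.51 from CpG. Cenpa, the histone H3 variant that marks centromeres, read 1051 in CpG, 1519 in IFN-g+IL-10RB and 211 in Triple. Its Triple signal was 7.19-fold below IFN-g+IL-10RB and 4.98-fold below CpG. Ndc80, which binds microtubules, read 381 in CpG, 537 in IFN-g+IL-10RB and 134 in Triple. It had the smallest difference of the group from IFN-g+IL-10RB, still 4.01-fold. Its partners in the same 4-part complex, Nuf2 (−2.40), Spc24 (−2.63) and Spc25 (−2.51), were lower by more, and Cenpe, a kinetochore motor, was at −2.18. A mean over the 3 Nuf2 probes, of which the others were not above background, gave −0.79 from IFN-g+IL-10RB and −0.56 from CpG. Cenpf read 6.11 in CpG, 15.6 in IFN-g+IL-10RB and 6.60 in Triple and was not well above background on any array.

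All 7 kinesin motors were more than 2-fold lower in Triple than in either other array, and they held the 2 largest differences of the set from IFN-g+IL-10RB. Kif23, a motor of the midzone needed for cell separation, read 380.2 in CpG, 762 in IFN-g+IL-10RB and 48.5 in Triple. Triple was 15.7-fold below IFN-g+IL-10RB (−3.97) and 7.84-fold below CpG (−2.97). Kif11, the motor Eg5 that pushes the spindle poles apart, read 299.7 in CpG, 457 in IFN-g+IL-10RB and 34.7 in Triple. Its Triple signal was close to the lowest that counts as above background, and 13.2-fold and 8.64-fold below the other arrays. Kif20b, a motor of cytokinesis, read 978 in CpG, 1265 in IFN-g+IL-10RB and 326 in Triple and had the smallest difference of the kinesins from IFN-g+IL-10RB (−1.96). The other motors, Kif20a, Kif22, Kif2c and Kif4, were between −2.43 and −2.28.

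Of the genes for the midzone, microtubules and cytokinesis, Anln, Prc1 and Ect2 were lower in Triple and Tpx2 stood apart. Anln, the contractile ring protein anillin, read 1923 in CpG, 2527 in IFN-g+IL-10RB and 286 in Triple. Triple was 8.85-fold below IFN-g+IL-10RB (−3.15) and 6.73-fold below CpG (−2.75). Prc1, which bundles midzone microtubules, was at −2.93 and −2.68, and Ect2, an activator of RhoA at the division furrow, at −2.07 and −1.77. A mean of both Ect2 probes, one of them not above background, gave −0.78 from CpG. Tpx2, a spindle assembly factor that activates Aurora A, read 1355 in CpG, 2921 in IFN-g+IL-10RB and 1530.1 in Triple. CpG and Triple were close (0.18) and IFN-g+IL-10RB was the high array, with Triple 1.91-fold and CpG 2.16-fold below it. The second Tpx2 probe gave −1.02 for Triple against IFN-g+IL-10RB, −0.25 against CpG and −0.77 for CpG against IFN-g+IL-10RB, so that the sign between Triple and CpG differed between the probes.

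Among the genes of condensin and mitotic chromosomes, 4 of 5 were more than 2-fold lower in Triple than in either other array. Mki67, which coats mitotic chromosomes and is the usual marker of cycling cells, read 5082 in CpG, 5289 in IFN-g+IL-10RB and 947 in Triple. CpG and IFN-g+IL-10RB were close and Triple was 5.58-fold and 5.36-fold below IFN-g+IL-10RB and CpG. Top2a, the topoisomerase that untangles sister chromatids, read 1515 in CpG, 2554 in IFN-g+IL-10RB and 615 in Triple. Here CpG lay well under IFN-g+IL-10RB (−0.75), and Triple was 4.15-fold and 2.46-fold below IFN-g+IL-10RB and CpG. Ncaph, a subunit of condensin I, read 4489.9 in CpG, 5425 in IFN-g+IL-10RB and 901 in Triple and was the lowest of this group against IFN-g+IL-10RB (−2.59), while against CpG it was at −2.32, above Mki67 (−2.42).

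Smc2, a core subunit of both condensins, was at −1.51 and −1.35. Ncapg, another subunit of condensin I, read 51.5 in CpG, 38.8 in IFN-g+IL-10RB and 16.5 in Triple, with Triple not well above background. CpG was the higher of the 2 measured arrays, and Triple was at least 1.44-fold below IFN-g+IL-10RB and at least 1.92-fold below CpG. Smc4, the partner of SMC2, had its one spot marked as an outlier, and with such spots kept it read 3939 in CpG, 4079 in IFN-g+IL-10RB and 3081 in Triple. The arrays differed less than for Smc2, with log2 differences of −0.40 and −0.35, inside 2-fold.

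**Figure D3:**
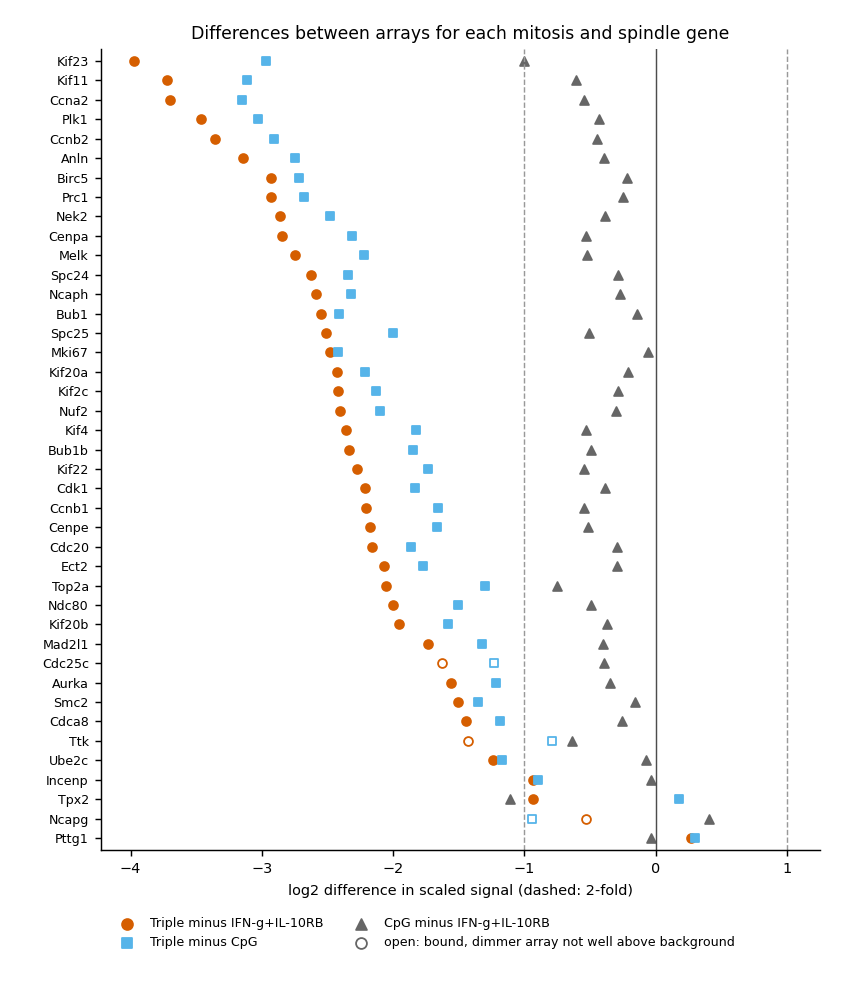
Log2 difference in scaled signal for the 41 genes with a difference, from the lowest to the highest value of Triple minus IFN-g+IL-10RB (circles), with Triple minus CpG (squares) and CpG minus IFN-g+IL-10RB (triangles). Open symbols are bounds, dashed lines mark 2-fold, and 37 circles lie past the left line while 39 triangles lie inside both lines.

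CpG and IFN-g+IL-10RB differed far less from each other. For CpG against IFN-g+IL-10RB, 2 of 41 genes were more than 2-fold lower, Tpx2 (−1.11) and Kif23 (−1.0), and 0 were more than 2-fold higher, compared with 5.86% lower and 5.07% higher over all genes. Kif23 sat at the limit and was inside 2-fold under 8 of the 11 other ways of processing. The median of the set was −0.38, a 1.31-fold lower signal in CpG, and that of all genes was 0.01. In 32 genes CpG was lower by more than 0.23, which is 2 SD of a log2 difference between single spots, 8 genes were within this and 1, Ncapg (0.41), was higher. Over all genes the 30th percentile of this log2 difference was −0.23 and the 71st was 0.23. The spot error leaves out the spread between cultures, which 1 array per condition does not give. The genes with the smallest differences were Incenp (−0.03), Pttg1 (−0.03), Mki67 (−0.06) and Ube2c (−0.07), named after their values were seen, and the sign of the first 2 turned under another scaling.

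Other probes of the same genes mostly gave the same picture. There were 18 further probes, of which 13, from 11 genes, had a signal well above background. From IFN-g+IL-10RB all 13 had the same direction as the probe used and 11 fell on the same side of 2-fold, and from CpG 12 and 12 did. The log2 difference of such a probe was a median of 0.12 away from that of the probe used, and at most 1.83, for a dim probe of Cdk1. The 2 further probes of Birc5 (−2.95 and −3.03 from IFN-g+IL-10RB), the second probe of Mki67 (−2.51) and the 2 of Mad2l1 (−1.65 and −1.85) were close to the ones used. The second probe of Ube2c gave a larger difference (−2.45).

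Genes of mitosis outside the set were lower in Triple in most but not all cases. Of 90 such genes with a difference from IFN-g+IL-10RB, 57 were more than 2-fold lower and 1 higher, with a median of −1.55. From CpG 48 of 90 were more than 2-fold lower and 0 higher, with a median of −1.12. Other kinetochore and centromere genes numbered 20 of 29 lower and 0 higher. The ends of that list were Ska1, a microtubule coupler (−3.77), and Cenpm (at least 8.95-fold lower) on the low side, with the centromere protein Cenpt (0.19) and Zwint (0.52) on the high side. Other spindle and cytokinesis genes numbered 20 of 25 lower and 0 higher, from Aspm, a spindle pole protein (at least 14.8-fold lower), and Pimreg, named Fam64a on the array (−3.82), to the centriole gene Sass6 (−0.51) and the microtubule polymerase Ckap5 (−0.21).

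Condensin and cohesin genes outside the set were more mixed, with 6 of 15 lower and 0 higher. Esco2, which acetylates cohesin in S phase (at least 9.20-fold lower), and Ncapd2, a condensin I subunit (−2.61), were lowest, and the cohesin subunit Stag1 (0.18) and the cohesin release factor Wapl, named Wapal on the array (0.34), were highest. Cohesin, which holds sister chromatids together and also shapes chromatin outside mitosis, had 0 of 8 subunits and partners past 2-fold in either direction (−0.93 to 0.34), a subset picked after the values were seen. Condensin had 5 of 7 measured subunits more than 2-fold lower, among them Smc2 and Ncaph from the set.

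Other regulators of entry into and exit from mitosis numbered 11 of 21 more than 2-fold lower and 1 higher. Cdca3, which directs WEE1 to destruction (−3.35), and Fbxo5, the inhibitor EMI1 of the anaphase-promoting complex (−3.28), were lowest. Fzr1, the activator CDH1 that this complex uses in G1 (0.79), and Ube2s, its chain-elongating enzyme (1.06), were highest. The core subunits of the complex, again picked after their values were seen, held 1 of 7 lower, Anapc5 (−1.03), and the other 6 were between −0.27 and 0.32.

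DNA replication genes, the S phase counterpart, were lower in Triple too. Of 24 listed, 22 were more than 2-fold lower than in IFN-g+IL-10RB and 0 higher, with a median of −1.82, and 21 were lower than in CpG, with a median of −1.64. Tk1, thymidine kinase (−4.61), and Rrm2, a ribonucleotide reductase subunit (−3.68), were lowest, and the origin licensing factor Cdt1 (−0.98) and Tyms, thymidylate synthase (0.99), were highest. Against IFN-g+IL-10RB the mitosis and spindle genes had the lower median, a difference that was not tested.

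**Figure D4:**
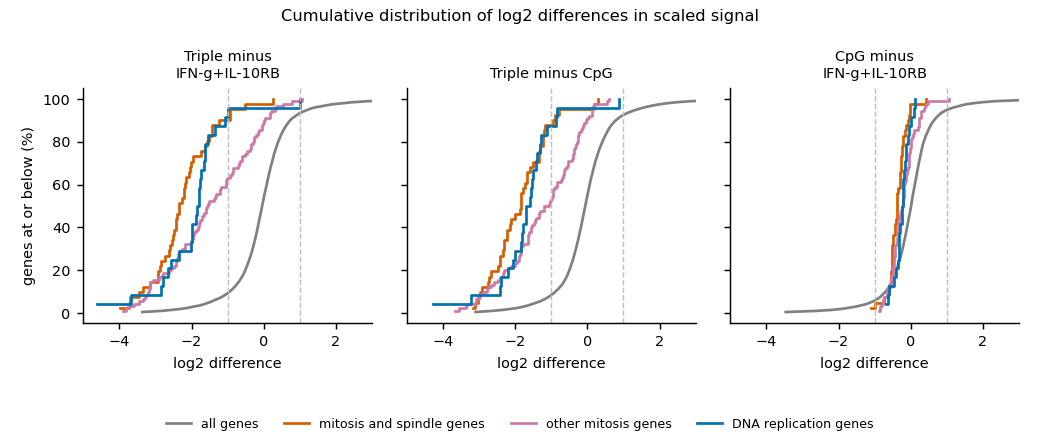
Cumulative share of genes (%) against the log2 difference in scaled signal for Triple minus IFN-g+IL-10RB, Triple minus CpG and CpG minus IFN-g+IL-10RB, with dashed lines at 2-fold. The curve of the mitosis and spindle genes lies left of all genes in the first 2 panels (medians −2.34 and −1.85 against −0.05 and −0.06). So does that of the DNA replication genes (−1.82 and −1.64). In the third panel both lie left of all genes by less (−0.38 and −0.24 against 0.01).

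The listed transcription factors of the cell cycle, which include repressors such as E2f7, were lower in Triple in part. Of 20 listed, 9 were more than 2-fold lower in Triple than in IFN-g+IL-10RB and 1 was higher. Foxm1, the activator of G2/M genes, read 636 in CpG, 1104 in IFN-g+IL-10RB and 104 in Triple, with Triple lowest by 10.6-fold and 6.09-fold against IFN-g+IL-10RB and CpG. Mybl2, B-MYB, read 2685 in CpG, 3619.7 in IFN-g+IL-10RB and 572 in Triple, and was again lowest in Triple (−2.66 and −2.23). E2f7, a repressor of the E2F family that is itself made in S phase, read 754 in CpG, 988 in IFN-g+IL-10RB and 42.4 in Triple and had the largest difference of the list (−4.54). The E2F factors E2f2 (−3.47), E2f8 (−2.60) and E2f1 (−1.21) were lower too, whereas E2f3, E2f4 and E2f5 lay between 0.11 and 0.20.

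Subunits of the DREAM and MuvB complexes were close to the limit or inside it. Lin9 was just past 2-fold at −1.0, while Lin37, Lin52 and Lin54 were between −0.75 and 0.07, and the pocket proteins Rb1, Rbl1 and Rbl2 between −0.90 and −0.13. The E2F partners Tfdp1 (−1.01, just past 2-fold) and Tfdp2 (−1.52) were lower. Rbl1 was 2.64-fold lower in CpG than in IFN-g+IL-10RB. Myc, a growth regulator, read 1627 in CpG, 461 in IFN-g+IL-10RB and 1081 in Triple. IFN-g+IL-10RB was the low array for Myc, with Triple 2.35-fold and CpG 3.53-fold above it.

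The CDK inhibitors differed in direction. Of the 7 with a difference, 4 were more than 2-fold lower in Triple than in IFN-g+IL-10RB and 1 was higher. Cdkn2b, the CDK4/6 inhibitor p15, read 320.2 in CpG, 35.1 in IFN-g+IL-10RB and 222 in Triple. It was high in both arrays with CpG and low in IFN-g+IL-10RB, 6.34-fold below Triple. Cdkn2c, p18, read 990.5 in CpG, 1767 in IFN-g+IL-10RB and 191 in Triple and was lowest in Triple (−3.21). Cdkn1c, p57, read 770.03 in CpG, 246 in IFN-g+IL-10RB and 97.5 in Triple and was highest in CpG. Cdkn2d (−1.42) and Cdkn3, a phosphatase of CDKs (−2.22), were lower as well. Cdkn1a, p21 (−0.53 and −0.48), and Cdkn1b, p27 (−0.08 and 0.12), named after their values were seen, were inside 2-fold, and Cdkn2a was not well above background on any array.

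The G1 cyclins differed from one another. Ccnd1, cyclin D1, which growth factors induce, read 20676 in CpG, 54175 in IFN-g+IL-10RB and 6380.2 in Triple. IFN-g+IL-10RB was highest and Triple lowest, 8.49-fold below it and 3.24-fold below CpG. Ccnd2, cyclin D2, read 1278 in CpG, 9696 in IFN-g+IL-10RB and 5171 in Triple, with CpG the low array and Triple 4.05-fold above it. Ccne1, cyclin E1, which drives entry into S phase, read 4774 in CpG, 7948 in IFN-g+IL-10RB and 15348 in Triple. Triple was the highest array for Ccne1, 3.21-fold above CpG and 1.93-fold above IFN-g+IL-10RB, opposite to the mitotic cyclins. Cdk4 was just past 2-fold under CpG (−1.0) and inside 2-fold under IFN-g+IL-10RB (−0.77).

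**Figure D5:**
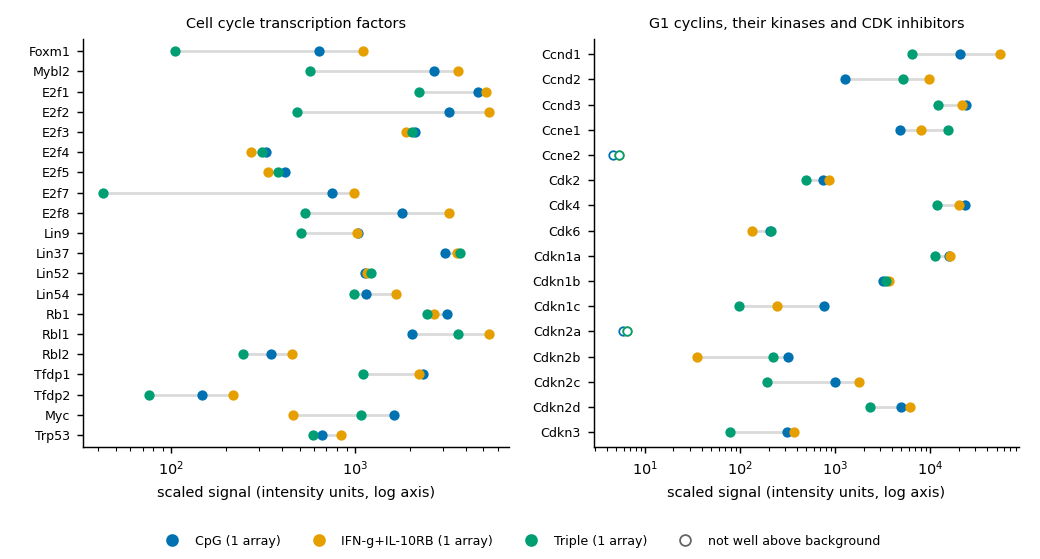
Scaled signal (intensity units, log axis) of the listed cell cycle transcription factors (left) and of the G1 cyclins, their kinases and CDK inhibitors (right), 1 point per array, with open points not well above background. Triple is far left of the others for Foxm1, E2f2 and E2f7, whereas for Ccne1 it is the rightmost point.

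Macrophage markers were well above background on all 3 arrays (7 of 7 measured), and their summed scaled signal was 599499 in CpG, 571729 in IFN-g+IL-10RB and 532873 in Triple. Such a sum leans on the brightest probes, and for other cell types it includes signals not well above background. Single markers differed more than the macrophage sum. Cd14, the co-receptor for bacterial lipopolysaccharide, read 54367 in CpG, 5526 in IFN-g+IL-10RB and 92808 in Triple and was lowest in IFN-g+IL-10RB (4.07 for Triple against it), Cd68 was lower in Triple than there (−1.17), and Mertk, a receptor for apoptotic cells, was higher in Triple than in CpG (2.02). Of 31 measured markers of other cell types, 16, 14 and 15 were well above background in CpG, IFN-g+IL-10RB and Triple. Those above it on all arrays were 10, namely Siglech, Elane, Ly6g, S100a8, Cd4, Cd3e, Lck, Cd79a, Col1a1 and Col1a2, and 13 were above it on none, among them Ms4a1, Pax5, Cd3d, Cd8a, Flt3, Mpo, Ngp, Pdgfra, Klf1, Mcpt8 and Fcer1a. Cd3e, a T cell receptor chain, read 842 in CpG, 867 in IFN-g+IL-10RB and 822 in Triple, nearly even over the arrays. Cd79a, a B cell marker, read 65.4 in CpG, 75.4 in IFN-g+IL-10RB and 44.5 in Triple, and was lowest in Triple and inside 2-fold. Epor, the erythropoietin receptor, read 107 in CpG, 52.1 in IFN-g+IL-10RB and 22.1 in Triple, not well above background in Triple, and was at least 3.98-fold lower there than in CpG. Progenitors are themselves cycling cells, and their markers had 3, 2 and 2 of 5 well above background in CpG, IFN-g+IL-10RB and Triple. Their summed signal was 2992, 2289 and 1668, mostly through Elane (2786, 1613 and 1570), which hardly differed between Triple and IFN-g+IL-10RB (−0.04). Of 3 progenitor markers with a difference, 1 was more than 2-fold lower in Triple and 0 higher, against either other array. This was Cd34, which read 83.8 in CpG, 633 in IFN-g+IL-10RB and 27.6 in Triple. It was not well above background in Triple, with bounds of −4.52 from IFN-g+IL-10RB and −1.60 from CpG. Kit read 92.1 in CpG, 5.80 in IFN-g+IL-10RB and 49.4 in Triple and was not well above background in IFN-g+IL-10RB. Neutrophil markers summed to 970.2, 7809 and 3395, mostly through Ly6g (544.6, 7688 and 2712). The sum hides differences in direction. Of 4 neutrophil markers with a difference from IFN-g+IL-10RB, 1 was more than 2-fold lower in Triple and 2 were higher, among them S100a8 (291, 55.7 and 527). T cell markers (3 of 5 on each array) summed to 2570.2 to 2989, and dendritic cell markers (1, 2 and 3 of 4) to 30551 to 35990.2, mostly through Siglech. Of 3 dendritic cell markers with a difference for Triple, 2 were more than 2-fold higher there than in either other array, and Siglech was inside 2-fold. Fibroblast markers (3, 2 and 3 of 4) summed to 325.7 to 528.8, and 0 of 2 mast cell markers were above background. The part of these markers in the lower mitosis signals was not tested.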

How the data were processed

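RNA of 3 BMDM cultures was hybridised to 1-colour Agilent mouse arrays, 1 array per condition. The authors deposited the scanner output of Agilent Feature Extraction (version 10.10.1.1), and the intensity values used here were its background-corrected processed signals, with mean and background intensities used for an alternative. They also deposited a table of log2 values, which is the same signals divided by 1 constant per array (99.7% of probes within 0.01) and was used as an alternative. Control spots and spots marked as outliers (3.04% to 3.78%) were left out. Because fewer than 50% of spots were well above background, each array was scaled on the 75th percentile over 21233 probes, those above background on each of the arrays. The probe with the highest mean signal stood for its gene. Signals under the dimmest one well above background on the same array were set to that value. A difference from a dim signal is called a bound, which holds for the scanner's processed signal only. Some signals over that value were still not well above background. A difference needed the brighter array well above background (18061, 18273 and 18232 genes in the 3 comparisons), and more than 2-fold was the threshold.

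The members and the gene lists were chosen with earlier results of these data known. Signals are printed for Mki67, Top2a, Ccnb1, Cdk1, Plk1, Birc5 and Aurkb and for the lowest and highest member of each role by Triple minus IFN-g+IL-10RB. Of other lists the 2 lowest and 2 highest genes are named, with every listed CDK inhibitor, G1 cyclin or transcription factor past 2-fold, and other members with a value to complete their role. Probe gene names are those of the array, matched to RefSeq (GRCm38.p6) by accession for all 44 members. A few marker genes are not reported here by name. Alternatives changed the background correction (normexp in limma 3.58.1, R 4.3.3), scaling, filter, probe rule or threshold. Scripts (Python 3.11.15, pandas 2.3.3) were tested on simulated data.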

Additional observations from a re-analysis of the deposited data

How the results depend on the processing

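With 1 array per condition no replicate could be left out. No paired analysis was possible because no condition had a second array. The numbers of genes lower in Triple by more than the threshold were within 1.5 times the reported ones under all 15 alternatives. They were 32 to 39 against IFN-g+IL-10RB and 28 to 39 against CpG, and the number higher was 0 throughout. Among the alternatives were a 1.5-fold threshold (39 and 39 lower) and a 3-fold threshold (32 and 28). With the threshold kept at 2-fold, the counts against CpG were 32 to 38. One of the alternatives, leaving out the 5 genes whose probe lies in the first 48 of 384 rows of the array, was chosen after seeing the data. Of the genes past 2-fold, 32 of 37 and 29 of 36 passed it under all 11 alternatives with a value per gene, and 0 changed direction. The median log2 difference of Triple from IFN-g+IL-10RB moved by more than 0.11, which is 1 SD of a log2 difference between single spots, to −1.95 with normexp background correction, −2.51 with spike-in scaling, −2.07 with housekeeping scaling and −2.16 with the mean of all probes. The median from CpG moved to −1.58, −1.97, −1.61 and −1.67 in the same order. Spike-in scaling moved the median of all genes from −0.05 to −0.22 and housekeeping scaling to 0.22 against IFN-g+IL-10RB, and from −0.06 to −0.18 and 0.19 against CpG. The split of all genes against IFN-g+IL-10RB was then 2152 lower and 944 higher, or 1204 lower and 1786 higher, compared with 1681 and 1187, and against CpG 1834 and 1176, or 1094 and 1911, compared with 1529 and 1370. The count of 2 genes lower in CpG than in IFN-g+IL-10RB was 1 with normexp, quantile, median, all-probe percentile, no, and housekeeping scaling and with the authors' table, 0 with the mean of all probes and at 3-fold, and 5 at 1.5-fold. Beyond the changed threshold or probes themselves, the cause was not tested. Spots dim in Triple (Cdc25c, Ttk and Ncapg) give bounds only.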
